A study of Mus musculus with 4 samples.

Results

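The IFIT family, the interferon-induced proteins with tetratricopeptide repeats, is described here through 5 mouse genes, Ifit1, Ifit1bl1, Ifit2, Ifit3 and Ifit3b, found by gene symbol among the 32285 genes counted in each of 2 single-cell RNA libraries. All 5 were present in both libraries, and barcodes were kept that held 1000 or more UMIs (unique molecular identifiers, which count captured transcripts) and 500 or more genes, with mitochondrial UMIs making up 25% or less. The cells came from the small intestine of KO mice (VilCreIfnlr1fl/fl, in which Cre driven by the Villin promoter deletes floxed Ifnlr1, a receptor chain for type III interferon, in intestinal epithelium) and of WT mice, with 3 mice per genotype. Every mouse of both genotypes had been irradiated with 11 Gy of gamma rays while the head, the thorax and the upper limbs were shielded, so no unirradiated level is at hand. The design text puts collection at 96 h after irradiation, and the protocol of the samples puts it at 3 days. The labels give no age, and do not say whether WT mice carried Cre. Live EPCAM+ CD45- cells were taken by flow sorting, a hashtag (a DNA barcode read in every cell) marked the mouse of origin, and mice of the same genotype went into 1 pool and 1 library. Genotype and pool therefore cannot be told apart in any comparison below, and the p-values measure the spread between mice within pools. The labels give 2 experiments, and 1 was analysed here.

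IFIT proteins are made by cells that have sensed interferon or viral RNA. Type I and type III interferons act through different receptors on the same transcription factor, ISGF3, which contains Irf9 and Stat2 and binds the interferon-stimulated response element in the promoters of these genes. IFIT1 binds RNA caps that lack a methyl mark found on host messages and blocks their translation, IFIT3 strengthens that binding in human cells, and Ifit2 restricts neurotropic viruses in mice. In gut epithelium, type III interferon is a main driver of such genes, since absorptive cells carry its receptor.

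The genes lie side by side on mouse chromosome 19, between 34550694 and 34650009 in the GRCm38 annotation, a stretch of 99316 bases. From left to right stand Ifit2 (34550694 to 34576419), Ifit3 (34583531 to 34588731), Ifit1bl1 (34592891 to 34601956), Ifit3b (34607970 to 34613401), a further family gene, Ifit1bl2 (34617049 to 34640743), and Ifit1 (34640871 to 34650009). Ifit1bl1 and Ifit1bl2 are read from the minus strand and the other 4 genes from the plus strand. Ifit1bl2 is not one of the 5 genes, but it shares a promoter region with Ifit1 and is given beside them. Promoter windows from RefSeq (GRCm38.p6, 250 bases before to 50 after each start) were searched for GAAANNGAAA, a core of the interferon-stimulated response element, on either strand, where it reads TTTCNNTTTC. It was found in 4 of the 5 members (80.0%), against 3.43% of all 32817 windows and 41.0% of 39 other interferon-stimulated genes with a window. Ifit1, Ifit3 and Ifit3b held 2 copies each, Ifit1bl1 held 1 in each of its windows, and neither window of Ifit2 held any. The stretches that carry the motif are shown because all but Ifit2 of these genes share it, Ifit1bl2 among them. All lie before the annotated start in the direction of their gene, 5′ to 3′, with the motif in capitals, at chr19:34640770-34640828 for Ifit1 (plus strand), at the same bases on the minus strand for Ifit1bl2, at chr19:34583358-34583431 for Ifit3 (plus), at chr19:34607754-34607827 for Ifit3b (plus) and at chr19:34602048-34602087 for Ifit1bl1 (minus).
Ifit1: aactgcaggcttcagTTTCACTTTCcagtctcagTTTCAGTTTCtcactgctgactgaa
Ifit1bl2: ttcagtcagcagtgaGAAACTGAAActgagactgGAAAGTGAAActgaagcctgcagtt
Ifit3: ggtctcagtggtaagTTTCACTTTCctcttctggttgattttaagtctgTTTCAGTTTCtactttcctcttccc
Ifit3b: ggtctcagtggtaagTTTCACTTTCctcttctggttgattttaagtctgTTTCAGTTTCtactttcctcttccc
Ifit1bl1: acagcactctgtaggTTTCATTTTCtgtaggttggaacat

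Counted from the annotated start, the stretch of Ifit1 runs from −119 to −61, that of Ifit1bl2 from −85 to −27, that of Ifit3 from −171 to −98, that of Ifit3b from −203 to −130 and that of Ifit1bl1 from −119 to −80. The Ifit1 and Ifit1bl2 stretches are the 2 strands of 1 piece of DNA, between start sites that lie 146 bases apart, and the Ifit3 and Ifit3b stretches are identical. Coding sequences of Ifit3 and Ifit3b matched at 99.1% of bases, those of Ifit1bl1 and Ifit1bl2 at 87.5%, and those of Ifit1 and Ifit1bl1 at 75.7%. Reads of a 3′ library come from near the end of a transcript, and of the 60-base windows in the last 500 bases of Ifit3, 12.9% also occurred in Ifit3b. For Ifit1bl1 against Ifit1bl2 that share was 4.76%. In the opposite directions (Ifit3b in Ifit3, and Ifit1bl2 in Ifit1bl1) it was 0%, as it was for Ifit1 against any family gene. How UMIs of the shared windows were divided within these pairs is uncertain.

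After filtering, 4028 of 7370 KO barcodes and 5563 of 10453 WT barcodes remained, of which 9 had the same barcode in both libraries. Hashtags gave 1100, 923 and 852 cells for mice KO1 to KO3 and 727, 820 and 1300 cells for mice WT1 to WT3, with 15263079 to 34245202 UMIs per KO mouse and 10367207 to 20543191 per WT mouse. The mice with hashtag number 2 stood apart, with a median depth of 21987 (KO2) and 13298 (WT2) UMIs, where the other 4 mice had 8824 to 11471, and with nearly all crypt progenitor-like cells (174 in KO2 and 90 in WT2, against 2 in the other 4 mice together). Cells were clustered without the interferon-stimulated genes and named from marker genes, and the 12 enterocyte and 8 goblet markers were detected in all 6 mice. Of the 12 immune markers 1 to 4 were at 0 in each mouse, and their summed level was 6.39 to 17.2 CPM (counts per 1000000 UMIs) in KO mice and 7.64 to 51.5 CPM in WT mice. The deleted gene, Ifnlr1, stood at 27.6, 15.8 and 23.1 CPM in KO1 to KO3, against 22.1, 15.3 and 26.2 CPM in WT1 to WT3. The groups overlapped (log2 fold change −0.14, SE 0.40, edgeR adjusted p = 0.995). The labels do not name the deleted exons, and counts from the 3′ end need not cover them, so this checks nothing.

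All cells of a mouse were summed first, to ask how loss of the receptor in the epithelium bears on the family as a whole; in such sums, fewer cells of a type and less RNA per cell cannot be told apart. All 5 members stood lower in every KO mouse than in every WT mouse, and Ifit1bl2 did not. Ifit1, the cap-binding member, had 16.6, 4.64 and 9.89 CPM in KO1 to KO3, against 76.0, 60.9 and 94.5 CPM in WT1 to WT3. The lowest WT mouse thus stood well above the highest KO mouse. Ifit1bl1 had 47.9, 18.4 and 29.7 CPM in KO mice, against 69.4, 87.3 and 100.3 CPM in WT mice. Its groups lay closer together, with KO1 nearest to WT1.

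Ifit2, Ifit3 and Ifit3b were scarce. Ifit2 had 0.45, 1.2 and 0.85 CPM in KO mice, against 5.02, 2.00 and 2.46 CPM in WT mice. Ifit3 had 1.03, 1.11 and 0.72 CPM in KO mice, against 27.5, 2.68 and 4.53 CPM in WT mice. Ifit3b, its near copy, had 0.64, 0.29 and 0.33 CPM in KO mice, against 12.8, 2.24 and 1.49 CPM in WT mice. WT1 was far above the other WT mice in Ifit3 and Ifit3b, and a single cell held most of those UMIs, as given further on. Ifit1bl2 had 114, 35.3 and 97.8 CPM in KO mice, against 77.5, 58.9 and 115 CPM in WT mice, so that its groups overlapped fully.

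**Figure D1:**
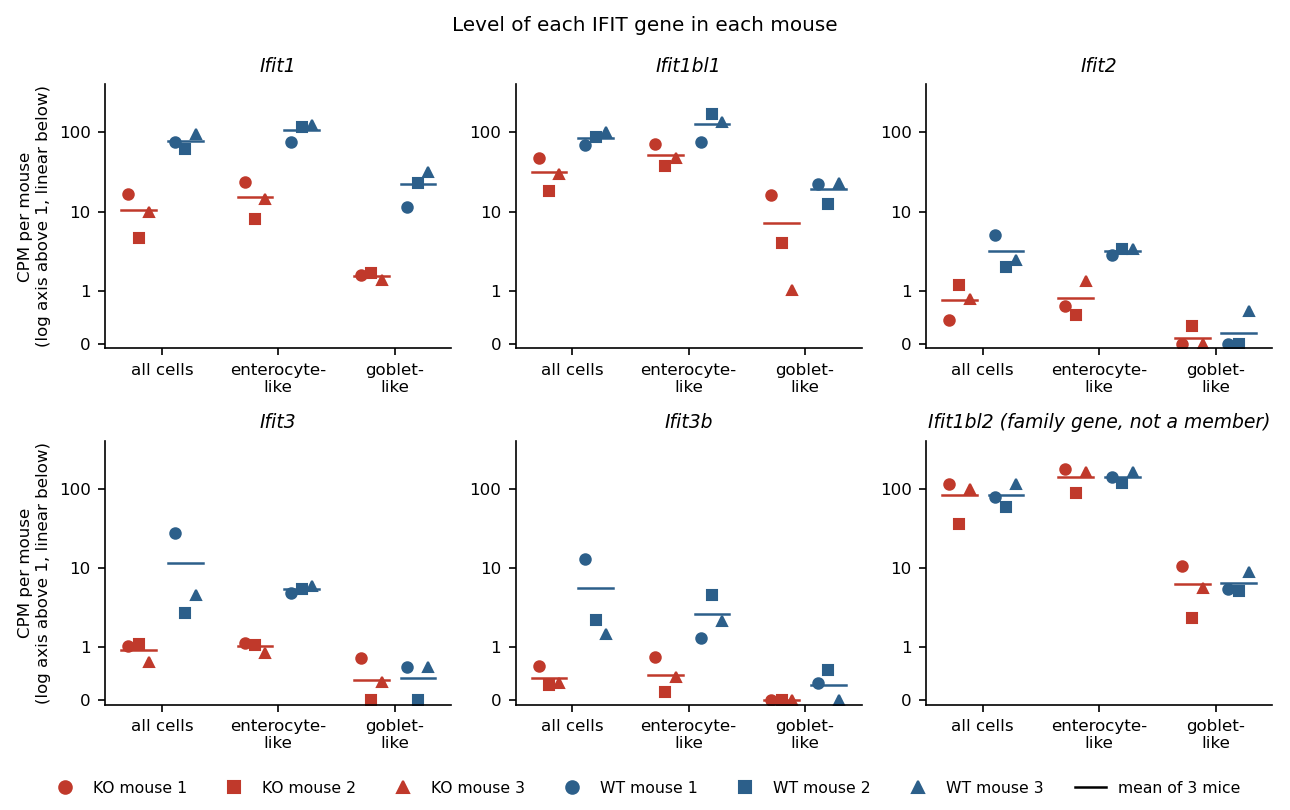
Level of each of the 5 members and of Ifit1bl2 in CPM (vertical axis, logarithmic above 1 and linear below) in all cells, enterocyte-like and goblet-like cells, with 1 symbol per mouse (KO red and left, WT blue and right) and a line at the mean of 3 mice. In the panels for all and for enterocyte-like cells every KO mouse lies below every WT mouse for all 5 members, while the Ifit1bl2 symbols overlap.

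In edgeR's quasi-likelihood fit of all cells over 13006 genes, the log2 fold changes were −3.09 (SE 0.57) for Ifit1, −1.58 (SE 0.42) for Ifit1bl1, −2.12 (SE 0.58) for Ifit2, −3.86 (SE 1.04) for Ifit3 and −3.95 (SE 1.05) for Ifit3b. None passed (adjusted p = 0.995 for each). No other gene passed either, with 220 genes at an unadjusted p under 0.05 and 36 called by DESeq2. The 5 of 5 members whose values did not overlap compare with 2.36% of all genes lower in KO without overlap. Mice of equal hashtag number deviated together from their genotype means (r = 0.428, 0.844 and 0.646 for hashtags 1 to 3). Other pairs did so too (KO1 with WT3 at 0.629), and no label states a pairing. What a block by that number removes is largely how far both hashtag 2 mice stand from the rest. With this block 2 of 5 members fell, against 0.723% of all genes. These were Ifit1 (−3.22, SE 0.26, adjusted p = 0.00816) and Ifit3b (−3.47, SE 0.46, adjusted p = 0.0353), and Ifit3b was lost without the richest IFIT barcode of each mouse (−1.45, SE 0.49, adjusted p = 0.179). DESeq2 called Ifit1, Ifit3 and Ifit3b, against 0.18% of genes lower. It was not run without the richest barcodes, and in WT1 a single cell held most Ifit3 and Ifit3b UMIs.

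Enterocyte-like cells, the absorptive cells, held most of the family's UMIs: 91.3%, 70.1% and 92.1% of them in KO1 to KO3, and 43.6%, 91.8% and 89.2% in WT1 to WT3. In WT1 the single cell named above, of an unnamed cluster, held 40.9%. In these cells Ifit1 had 23.6, 8.05 and 14.5 CPM in KO mice, against 76.5, 116 and 125 CPM in WT mice. Ifit1bl1 had 70.5, 37.8 and 47.8 CPM in KO mice, against 76.1, 170.0 and 136 CPM in WT mice. Ifit1 was separated by a wide gap, whereas KO1 and WT1 nearly met in Ifit1bl1.

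Ifit3 was the most even of the scarce members here. It had 1.12, 1.08 and 0.89 CPM in KO mice, against 4.88, 5.43 and 5.93 CPM in WT mice. Ifit2 had 0.72, 0.54 and 1.33 CPM in KO mice, against 2.81, 3.38 and 3.40 CPM in WT mice. Ifit3b had 0.82, 0.15 and 0.44 CPM in KO mice, against 1.31, 4.5 and 2.14 CPM in WT mice, and 30 of the 44 UMIs of WT2 came from 1 cell. Every KO mouse was below every WT mouse in all 3 genes. Ifit1bl2, with the most UMIs of the 6 genes over the 6 mice, again overlapped, with 177, 86.7 and 160 CPM in KO mice against 141, 117 and 162 CPM in WT mice.

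The enterocyte-like fit over 10694 genes called 0 genes without the block (409 at an unadjusted p under 0.05, 57 called by DESeq2), and so 0 of 5 members. DESeq2 called Ifit1 and Ifit3, against 0.32% of genes lower. Ifit3 had rank 3 by p among all genes (log2 fold change −2.55, SE 0.30, adjusted p = 0.221), and Ifit1 stood at −2.96 (SE 0.46, adjusted p = 0.304). With hashtag number as a block all 5 members fell, against 8.32% of all genes called lower: Ifit1 by 3.04 (SE 0.32, adjusted p = 0.000812), Ifit3 by 2.54 (SE 0.30, adjusted p = 0.00153), Ifit2 by 2.11 (SE 0.36, adjusted p = 0.00618), Ifit1bl1 by 1.46 (SE 0.30, adjusted p = 0.0116) and Ifit3b by 2.70 (SE 0.60, adjusted p = 0.0164) on the log2 scale. All 5 kept their call in the block fit without the richest IFIT barcode of each mouse. Without the block and without both hashtag 2 mice, Ifit1, Ifit3, Ifit2 and Ifit1bl1 fell, against 5.84% of genes lower. Values that did not overlap were found for 5 of 5 members and for 4.65% of all genes in that direction.

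**Figure D2:**
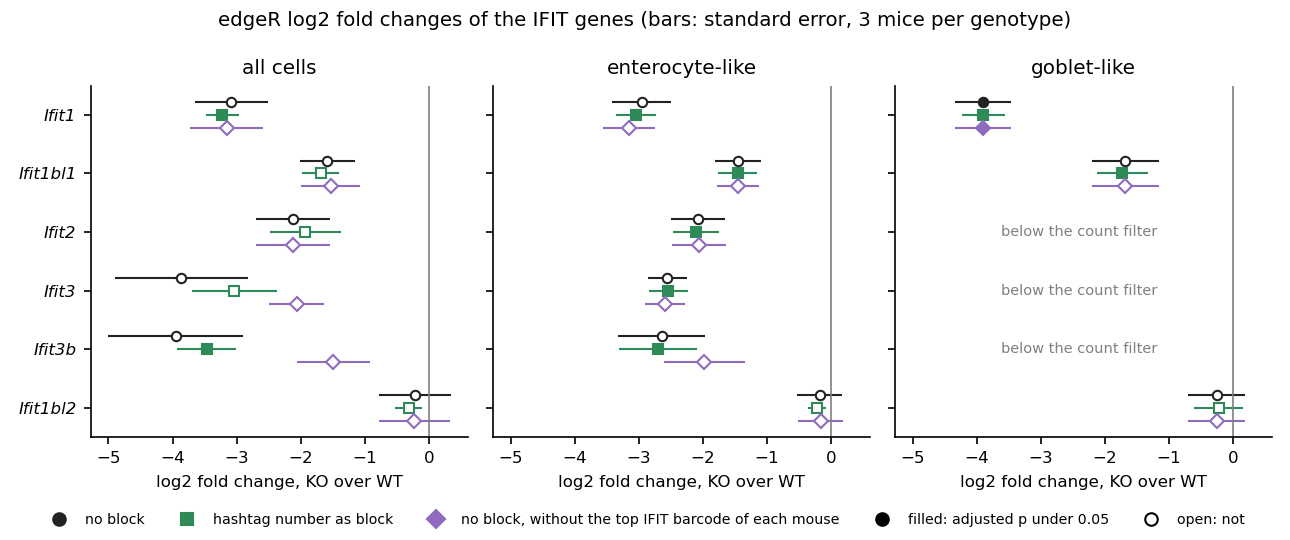
edgeR log2 fold change of KO over WT (horizontal axis, with standard error) for each gene in 3 sets of cells, without a block, with hashtag number as a block, and without the richest IFIT barcode of each mouse; filled symbols have an adjusted p under 0.05. All values for the 5 members lie below 0, Ifit3 and Ifit3b in all cells move toward 0 when the richest barcodes are left out, and Ifit1bl2 lies near 0 throughout.

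Enterocyte-like cells of the genotypes fell largely into different clusters, with clusters 0 and 3 mostly KO and clusters 2, 4, 9 and 12 mostly WT, so levels were also read within each of the 11 clusters that held at least 30 cells of each library. Ifit1 was lower in the KO library in 11 of 11 clusters, with counting intervals apart in all 11. It ranged from 3.30 to 46.6 CPM in KO cells and from 29.5 to 313 CPM in WT cells. By mouse, however, Ifit1 overlapped in clusters 0 and 3. In cluster 0 it had 15.9, 11.55 and 5.74 CPM in KO mice against 6.30, 7.79 and 171 CPM in WT mice, the last from 5 cells. In cluster 3 it had 13.2, 16.6 and 14.8 CPM in KO mice against 13.2, 66.6 and 17.5 CPM in WT mice. Ifit1bl1 was lower in 8 clusters, of which 7 had intervals apart, but higher in KO cells in clusters 3 and 9 with intervals apart. In cluster 3, led among others by the oxidase gene Duox2 and its maturation factor Duoxa2, Ifit1bl1 had 137 CPM (95% Poisson interval 127 to 147) in KO cells and 85.7 CPM (68.2 to 106) in WT cells. By mouse it had 173, 162 and 93.4 CPM in KO mice against 13.2, 179 and 30.7 CPM in WT mice there, so that the mice overlapped, and the WT values rest on 17, 34 and 25 cells. In cluster 9 Ifit1bl1 had 13.4, 45.4 and 173.5 CPM in KO mice against 95.55, 161.6 and 64.9 CPM in WT mice. KO1 and KO2 thus lay below every WT mouse there, and the KO values rest on 9, 11 and 11 cells. The library values also include cells without a hashtag.

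As a difference in CPM, Ifit1 stood furthest apart in cluster 13, led by Mbl2, S100g and Cym. As a ratio it did so in cluster 12, with 3.30 CPM in the KO and 128 CPM in the WT library, where the KO value rests on 2 UMIs. In cluster 13 Ifit1 had 34.6, 18.7 and 11.2 CPM in KO mice against 170, 386 and 292 CPM in WT mice. Ifit1bl1 had 20.3, 28.8 and 9.94 CPM in KO mice against 184, 484 and 271 CPM in WT mice. The WT values rest on 14, 42 and 23 cells. In WT2 1 cell held 139 of the 536 Ifit1 UMIs and 212 of the 672 Ifit1bl1 UMIs of this cluster. Since the cluster was picked by its Ifit1 levels, the gap in Ifit1 is no separate evidence. Both genes were lower in every KO mouse than in every WT mouse in this cluster, where 29.8% of KO library cells and 78.4% of WT library cells had an Ifit1 UMI at similar depth (median 31320 UMIs per KO cell and 31210 per WT cell). Ifit1bl2 had 215, 204 and 173 CPM in KO mice against 275, 224 and 272 CPM in WT mice in the same cells, and was also lower in every KO mouse there, by a smaller ratio. Library intervals cover counting error only and give no test of genotype.

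**Figure D3:**
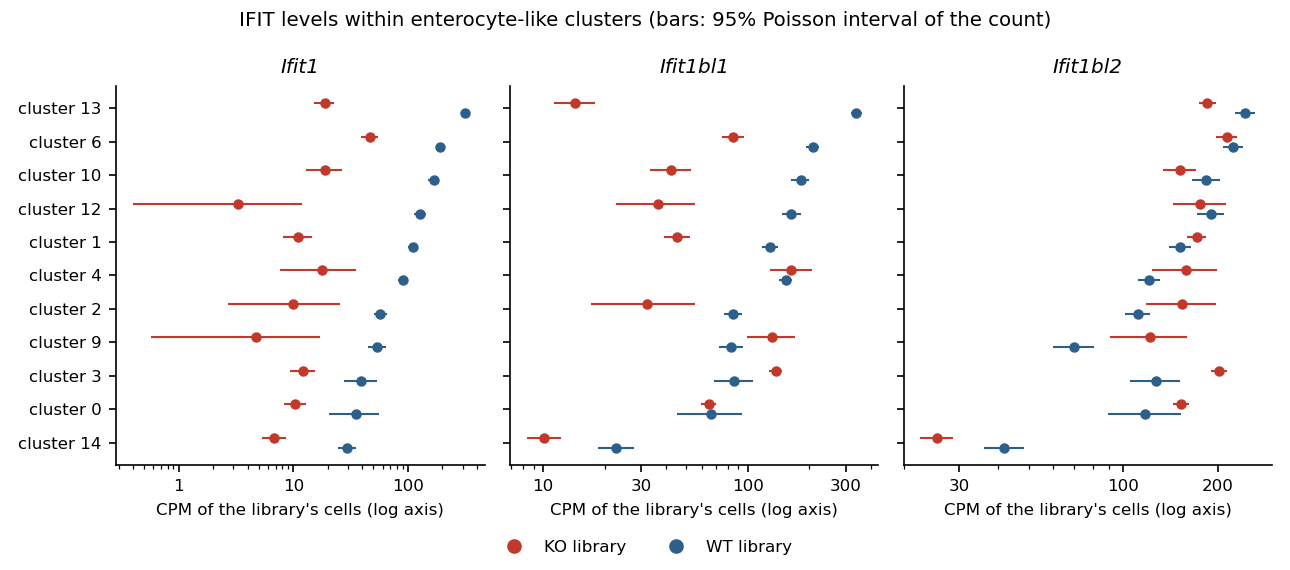
Level of Ifit1, Ifit1bl1 and Ifit1bl2 in CPM (horizontal logarithmic axis) in 11 enterocyte-like clusters, ordered by Ifit1 in WT, for the KO library (red, upper) and the WT library (blue, lower) with 95% Poisson intervals. Ifit1 is lower in the KO library in all 11 clusters, Ifit1bl1 in 8, and Ifit1bl2 in 5. Single mice, not shown, overlap for Ifit1 in clusters 0 and 3.

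Goblet-like cells, the mucus-secreting cells, held few IFIT UMIs but gave the firmest single call. The same clusters, 5 and 15, made up the class in both genotypes, with 361 KO and 354 WT library cells. Cluster 8, with 6 KO and 357 WT cells, also scored best for goblet markers and was led by Zg16, Muc2 and Clca1 among others, but it stayed unnamed. The limits on the marker score were set after the clusters had been seen. Cluster 8, whose median was 2686 UMIs, is outside the class here, and had 78.7 CPM of Ifit1 in its WT cells. Ifit1 had 1.59, 1.67 and 1.39 CPM in KO mice, against 11.5, 23.3 and 31.8 CPM in WT mice. The KO values rest on 4, 5 and 4 UMIs and the WT values on 36, 41 and 101. Ifit1 fell (log2 fold change −3.90, SE 0.44, edgeR adjusted p = 0.000306), and 1 of the 2 members tested was thus called, against 1.81% of 8505 genes lower. That call held under all 16 alternatives, with log2 fold changes from −4.21 to −3.45. Those without the richest IFIT barcode of each mouse removed no goblet-like cell, so they only repeat other fits.

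Ifit1bl1 had 16.3, 4.02 and 1.04 CPM in goblet-like cells of KO mice, against 22.3, 12.5 and 23.3 CPM in those of WT mice. KO1 lay inside the WT range, and the gene did not pass (−1.68, SE 0.52, adjusted p = 0.124). Without KO1 it passed (−3.08, adjusted p = 0.00557), as it did without WT2 (−1.93, adjusted p = 0.0248). It also passed in edgeR without the count filter (−1.70, adjusted p = 1.944e-09), where 2 of 5 members were called, against 2.05% of genes lower. That fit used the same Ifit1bl1 counts, in which KO1 lies inside the WT range, and gave nearly the same fold change. Its small p therefore depends on the filter and is no firmer evidence, and the cause of the shift was not tested. Ifit2, Ifit3 and Ifit3b had 3, 7 and 2 UMIs over the 6 mice and did not pass the count filter. Ifit1bl2 had 10.7, 2.34 and 5.55 CPM in KO mice against 5.41, 5.11 and 8.81 CPM in WT mice, with overlap. For Ifit1, whose groups did not overlap, the share of all genes lower in KO without overlap was 9.85%.

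Ifit1 and Ifit1bl1, the abundant members, did not stand lower by the same proportion. In enterocyte-like cells Ifit1 made up 25.1%, 17.6% and 23.2% of their joint UMIs in KO mice, against 50.1%, 40.6% and 47.9% in WT mice. The groups did not overlap, with a mean of 22% ± 3.92 in KO and 46.2% ± 5.00 in WT (SD, n = 3 each; p = 0.1 by exact permutation, which cannot go lower with 3 mice per genotype; 0.112 adjusted over 9 such ratios). Set against Ifit1bl2 in the same cells, there were 0.134, 0.0929 and 0.0902 Ifit1 UMIs per Ifit1bl2 UMI in KO mice, against 0.543, 0.993 and 0.773 in WT mice. In goblet-like cells the Ifit1 share of the joint UMIs overlapped, at 8.89%, 29.4% and 57.1% in KO mice and 34.0%, 65.1% and 57.7% in WT mice.

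The share of cells with an IFIT UMI was read next. Since depth differed between mice, every cell was thinned to 2000 UMIs, which left out 3 to 7 shallower enterocyte-like cells per KO mouse and 12 to 34 per WT mouse. At that depth 12.4%, 13% and 10.3% of enterocyte-like cells of KO mice had a UMI of at least 1 member, against 14.7%, 27.5% and 25.9% in WT mice. WT1 lay close to the KO mice and WT2 and WT3 well above, with no overlap. At full depth the shares were 34.3%, 38.0% and 32.7% in KO mice and 35.1%, 56.9% and 50.1% in WT mice, and overlapped. For Ifit1 alone the thinned shares were 2.20%, 2.10% and 2.14% in KO mice, against 7.46%, 14.9% and 14.2% in WT mice. The 3 KO mice lay within each other's counting intervals, while WT1 was below the other WT mice. Unthinned, the Ifit1 shares were 9.40%, 10.2% and 7.12% in KO mice and 19.8%, 35.7% and 31.7% in WT mice.

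Ifit1bl1 was detected in 10.5%, 11.3% and 8.42% of enterocyte-like cells of KO mice and in 9.14%, 18.1% and 16.0% of those of WT mice, and these overlapped (exact permutation p = 0.3). Cells with UMIs of at least 2 members made up 0.661%, 0.573% and 0.613% in KO mice, against 2.43%, 6.46% and 5.61% in WT mice, without overlap (exact permutation p = 0.1; 0.185 adjusted over 24 shares). In goblet-like cells Ifit1 was seen in 0 of 114, 0 of 120 and 0 of 118 KO cells, against 2.38%, 6.06% and 1.63% of cells in WT mice. A count of 0 allows shares of up to 2.63%, 2.50% and 2.54% by the limit of 3 counts, and of up to 3.18%, 3.03% and 3.08% by the exact interval. Unthinned, Ifit1 was seen in 0.87%, 3.33% and 3.36% of the goblet-like cells of KO mice and in 14.2%, 18.2% and 22% of those of WT mice. No class is known to lack these genes, so no share of free RNA could be read directly; crypt progenitor-like cells, the deepest class, had 6.50 CPM of summed members in KO cells and 5.36 CPM in WT cells at a median of 68839 and 37971 UMIs. Ifit1bl2 was detected in 25.7%, 24.2% and 26.5% of enterocyte-like cells of KO mice and in 21.8%, 22.7% and 24.7% of those of WT mice. Unthinned, that gene was seen in 63.7%, 66.6% and 69.1% of KO cells and 52.5%, 60.5% and 57.8% of WT cells, by mouse. The shares of Ifit1bl2 thus overlapped at 2000 UMIs, but every KO mouse lay above every WT mouse at full depth (mean 66.5% in KO and 56.9% in WT). The same was seen after thinning to 4000 UMIs (40.9% and 36.5%) and, at 2000 UMIs, with mice assigned by the hashtag ratio (25.8% and 22.7%).

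**Figure D4:**
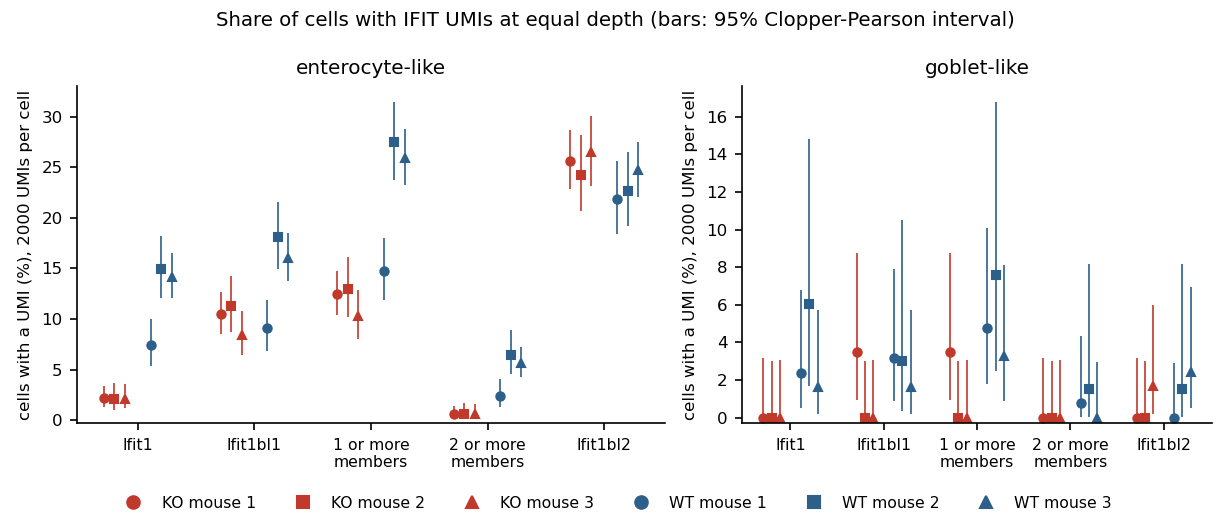
Share of cells with a UMI (vertical axis, percent, with its own scale in each panel) after thinning to 2000 UMIs per cell, for Ifit1, Ifit1bl1, at least 1 or 2 members and Ifit1bl2, by mouse (KO red and left, WT blue and right), with 95% Clopper-Pearson intervals that cover counting error only. In enterocyte-like cells the Ifit1 shares of KO mice lie between 2.10% and 2.20% and those of WT mice between 7.46% and 14.9%, while Ifit1bl2 shares overlap at this depth.

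Ifit1 and Ifit1bl1 were found in the same cell more often than the product of their shares in a mouse gives. They shared 5, 2 and 3 thinned enterocyte-like cells in KO mice where the product gives 2.09, 1.24 and 1.18. In WT mice they shared 13, 32 and 47 where it gives 3.66, 14.7 and 22.3. The ratio was above 1 in all 6 mice, from 1.61 to 2.54 in KO mice and from 2.11 to 3.56 in WT mice. Ifit1 and Ifit3 shared 1 KO cell and 12 WT cells, where the products sum to 0.044 and 2.46. Ifit3 and Ifit3b shared 0 cells in either genotype, where 0.0022 and 0.0631 cells are given by the product, so nothing can be read from it. Ifit1bl1 and Ifit1bl2 also shared more cells than the product, 82 against 53.2 in KO mice and 109 against 71.7 in WT mice. Cells of 1 mouse are not replicates and differ in type, so these are descriptions.

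The family was also compared between cell classes. Enterocyte-like cells stood above goblet-like cells in 6 of 6 mice for every member, by 2.43 ± 0.55 for Ifit1, 2.91 ± 1.06 for Ifit1bl1, 1.28 ± 0.72 for Ifit2, 1.40 ± 0.96 for Ifit3 and 0.98 ± 0.63 for Ifit3b in log2(CPM + 1) (SD, n = 6; exact sign-flip permutation p = 0.03125 each, the smallest that 6 pairs allow, and 0.03125 adjusted over 5). For Ifit3b the order in KO mice is not resolved. Goblet-like cells had 0 UMIs there, where 3 counts would be 1.19, 1.005 and 1.04 CPM. Enterocyte-like cells had less than that, with 0.82, 0.15 and 0.44 CPM. Some Ifit2 and Ifit3 values of KO mice also lay below this limit. Summed over members, enterocyte-like cells had 69.8 ± 24.9 CPM in KO mice and 245 ± 73.1 CPM in WT mice. Goblet-like cells had 9.15 ± 8.38 and 42.5 ± 12.1 CPM, enteroendocrine-like cells 12.3 ± 10.8 and 30.2 ± 4.68 CPM, Paneth-like cells 7.66 ± 6.13 and 24.8 ± 17.5 CPM, and tuft-like cells 2.89 ± 5.00 and 50.1 ± 63.6 CPM (SD, n = 3 mice each, KO first). Among the last 4 classes neighbouring levels lay within their spread, and those other than goblet-like had under 20 cells in at least 1 mouse.

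Whether the genotype difference itself differed between enterocyte-like and goblet-like cells was tested by permuting genotype over each mouse's difference between the classes. No member passed (exact permutation p from 0.1 to 0.6, and 0.25 to 0.6 adjusted over 5). None could, since 3 mice per genotype allow no exact p under 0.1. Ifit2 and Ifit3 stood at that limit, so this test cannot decide the question. In crypt progenitor-like cells, which only the hashtag 2 mice held in number, Ifit2 was seen in 12.6% of KO2 cells (2.32 CPM) and 3.33% of WT2 cells (0.597 CPM). With 1 mouse per genotype there is no test. Those KO2 cells gave 75.6% of the Ifit2 UMIs of that mouse.

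Along the villus, enterocyte-like cells were split within each mouse into 3 groups of equal size by the summed level of 11 villus top genes minus that of 9 villus bottom genes. Ifit1 stood lower in the top group in 5 of 6 mice, with 15.1, 9.07 and 5.99 CPM against 34.6, 6.84 and 21.0 CPM in the bottom group of KO mice, and 42.9, 44.5 and 61.7 CPM against 122, 130 and 208 CPM in the bottom group of WT mice. The exception was KO2. Ifit3 was lower in the top group in 6 of 6 mice, by 1.09 ± 0.51 in log2(CPM + 1). Neither passed (exact sign-flip permutation p = 0.0625 and 0.03125, and 0.156 adjusted over 5 for both). The p of Ifit3 is the smallest that 6 pairs allow, so after adjustment over 5 it could not pass alone. The other members had 2 to 4 of 6 mice higher in the top group. Depth was higher at the bottom in all 3 KO mice and in WT2, and close to level in WT1 and WT3. The median in the top group was 7729, 8940 and 9100 UMIs per cell in KO mice, against 10260, 55460 and 16190 in their bottom group. In WT mice it was 8254, 9181 and 8842 in the top group, against 8127, 29530 and 9144 in the bottom group. The part of depth in these values was not tested.

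A few cells carried a large part of the UMIs. In WT1 1 cell of an unnamed cluster, with 95981 UMIs, held 255 of the 285 Ifit3 UMIs and 125 of the 133 Ifit3b UMIs of that mouse, along with 230 of Ifit1, 197 of Ifit1bl1, 1 of Ifit2 and 2 of Ifit1bl2. It also held 919 UMIs of Isg15, a ubiquitin-like interferon-stimulated protein. Without the richest cell for each gene, WT1 had 2.92 CPM of Ifit3 and 0.78 CPM of Ifit3b, near the 2.34 to 4.14 and 0.78 to 1.36 CPM of the other WT mice. Another cell, enterocyte-like in WT2, held 30 of the 46 Ifit3b UMIs there with 0 of Ifit3, and one in WT1 held 34 of the 52 Ifit2 UMIs. In the KO library the richest cell, enterocyte-like and without a hashtag, held 36 of Ifit3 and 32 of Ifit3b. Of Ifit1, the richest cell held 9.43% to 20.5% of a KO mouse's UMIs and 4.99% to 29.2% of a WT mouse's. The richest 1% of cells, 8 to 13 cells per mouse, held 52.3%, 53.5% and 58.9% of the Ifit1 UMIs in KO mice, against 53.1%, 37.5% and 28.0% in WT mice.

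**Figure D5:**
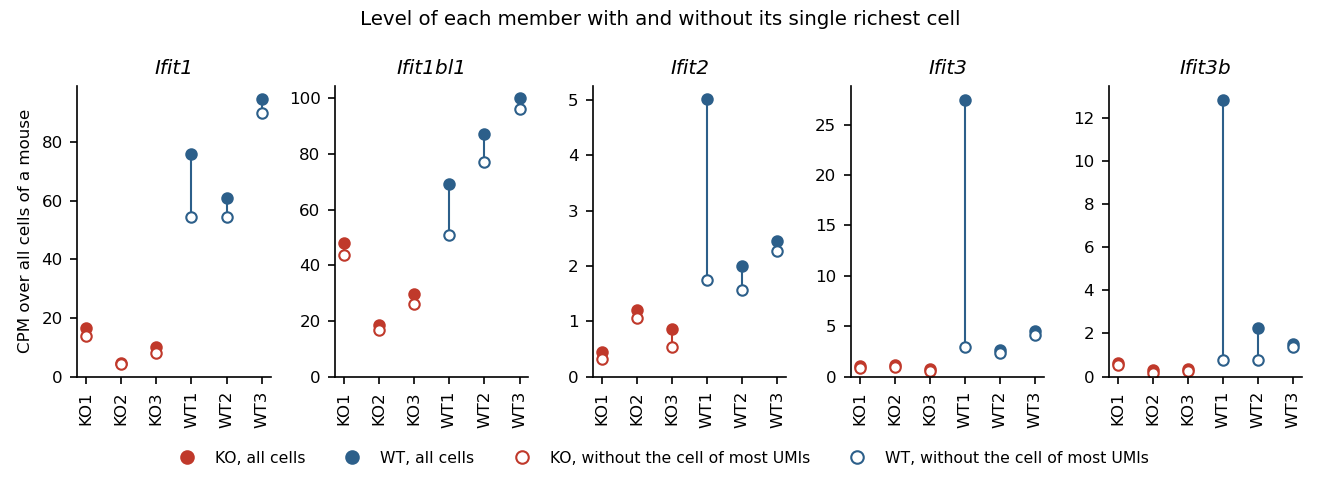
Level of each member in CPM over all cells of a mouse (vertical axis, starting at 0, its own scale in each panel), with every cell (filled) and without the single cell holding most UMIs of that gene (open), KO mice left and WT mice right. In WT1, Ifit3 drops to 2.92 CPM and Ifit3b to 0.78 CPM. For each member, every WT mouse still lies above every KO mouse without that cell, though Ifit3b in KO1 reaches 0.52 CPM.

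Without the richest IFIT barcode of each mouse, the all-cell log2 fold change of Ifit3 was −2.07 (SE 0.43) and that of Ifit3b −1.49 (SE 0.57), while Ifit1 stood at −3.16 (SE 0.57) and Ifit1bl1 at −1.53 (SE 0.46). Leaving out WT1 altogether gave −2.09 for Ifit3 and −2.23 for Ifit3b. Summed over members, KO mice had 0.244 of the WT level with every cell and 0.266 without those barcodes.

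Barcodes above the mitochondrial limit and cells with no hashtag entered none of the main comparisons between mice, and are given by library. Barcodes above the mitochondrial limit had 10.7 CPM of Ifit1 and 32.1 CPM of Ifit1bl1 in the KO library (2642 barcodes), against 72.8 and 97.5 CPM in the WT library (4263 barcodes). Cells with no hashtag had 10.1 CPM of Ifit1 in KO (816 cells) and 97.0 CPM in WT (2097 cells). Immune-like cells, in which the Villin promoter is not known to be active, were few in this sort: 29 in the KO and 36 in the WT library. They are also given by library, though those with a hashtag were part of the all-cell sums above. Their summed members stood at 218 CPM (95% Poisson interval 148 to 310) in KO and 190 CPM (127 to 273) in WT, and Ifit1 at 84.5 CPM (43.7 to 148) in KO and 98.2 CPM (55.0 to 162) in WT. The intervals overlapped, each genotype is 1 library, and this gives no test. Ifit3 and Ifit3b were seen there in KO cells, with 10 and 6 UMIs, and had 0 in WT cells, which allows up to 24.2 CPM by the same interval. A single cell of KO2 held 5 of these Ifit3 and 4 of these Ifit3b UMIs.

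The machinery that drives the family was measured in the same fits. Of the 11 genes of the interferon receptors and ISGF3, all were measured in goblet-like cells. Among those that fell without the block, against 1.81% of all genes lower, were Irf9, the DNA-binding subunit of ISGF3, with 3.12, 3.30 and 5.25 TMM-scaled CPM in KO mice against 16.8, 15.2 and 21.3 in WT mice (log2 fold change −2.18, SE 0.27, adjusted p = 0.000596), and Stat2 (−0.95, SE 0.20, adjusted p = 0.0246). The receptor chains did not pass, with Ifnlr1 at −0.31 (SE 0.33). In enterocyte-like cells Irf9 fell by 1.45 and Stat2 by 1.17 on the log2 scale with the block, and neither passed without it. The list's median log2 fold change was −0.31 in goblet-like cells and −0.20 in enterocyte-like cells, beside 0.01 and 0.06 over all genes.

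Of 50 other interferon-stimulated genes, 39 were measured in enterocyte-like cells; 0 fell without the block, and 35 fell and 0 rose with it, against 8.32% of all genes lower. Their median log2 fold change was −1.29, beside 0.06 over all genes. In goblet-like cells 35 were measured, and 24 fell and 0 rose without the block, against 1.81% of all genes lower. Their median was −1.24, beside 0.01 over all genes. Rtp4, a chaperone-like antiviral protein, had 1.17, 0.66 and 0.33 TMM-scaled CPM in goblet-like cells of KO mice against 17.5, 24.2 and 26.1 in those of WT mice (−4.93, SE 0.38, adjusted p = 9.89e-06). Oasl2 and Oas3, of the oligoadenylate synthetase family, fell by 2.03 (SE 0.20) and 2.09 (SE 0.20), Herc6, the mouse ligase for Isg15, by 2.36 (SE 0.29) and Lgals3bp by 1.76 (SE 0.21) on the log2 scale. This list was drawn up with results of these data known, so its direction is not independent evidence.

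Among 6 negative regulators, Usp18, which removes Isg15 and dampens receptor signalling, fell in goblet-like cells (−4.68, SE 0.79, adjusted p = 0.00517). It was 1 of 6 measured, against 1.81% of all genes lower. With the block, Usp18, Socs3 and Socs1 fell in enterocyte-like cells, 3 of 6 measured against 8.32% of all genes, by 3.68, 0.90 and 0.99 on the log2 scale. None of the 3 passed without the block (adjusted p = 0.463, 0.887 and 0.887), and Socs3 and Socs1 overlapped between genotypes. Of the 14 genes of interferon induction, including IFIT3's partners, 11 were measured in goblet-like cells and 2 fell, against 1.81% of all genes lower. These were the transcription factor Irf7 (−0.83, SE 0.15, adjusted p = 0.00683) and the RNA sensor Ifih1 (−0.54, SE 0.13, adjusted p = 0.0451). In enterocyte-like cells 12 were measured, and with the block 6 fell, against 8.32% of all genes, Dhx58, Irf7, Ddx58 and Ifih1 among them, while Tomm70a, the mitochondrial receptor that binds human IFIT3, rose (0.94, SE 0.14, adjusted p = 0.004), as did 10.9% of all genes. Its values overlapped between genotypes, with 85.4 TMM-scaled CPM in KO2 and 42.6 in WT2 against 10.4 to 25.3 in the other 4 mice.

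Of 10 genes for caps and translation, on which IFIT proteins act, 0 of 9 measured passed in goblet-like cells. With the block in enterocyte-like cells 1 of 9 measured fell and 1 rose, near the 8.32% and 10.9% of all genes: Eif2ak2, the RNA-activated kinase that halts translation, fell by 0.77 (SE 0.13) on the log2 scale, and Eif3e, an initiation factor subunit, rose (0.63, SE 0.13), again with KO2 and WT2 apart from the other mice. Neighbours on chromosome 19 were read beside the family. Of 16 genes of that list, Ifit1bl2 included, 9 were measured in enterocyte-like cells. Their median log2 fold change was 0.05, and with the block 1 of 9 fell (Pcgf5) and 2 rose (Pank1 and Rpp30), where 8.32% of all genes fell and 10.9% rose, so 1 of 9 lower is near the share over all genes. All 3 overlapped between genotypes. In goblet-like cells 0 of 6 measured passed. Promoter windows of 14 of these neighbours held the motif in 0 cases.

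By likeness of pattern over the 6 mice in enterocyte-like cells (Pearson r of log2(CPM + 1) with the summed members, over 6637 genes of at least 10 CPM on average), the 5 nearest genes were Cd74 (r = 0.995), H2-Aa (0.994), Cmpk2 (0.993), H2-Ab1 (0.980) and Ddx60 (0.973). Cd74, H2-Aa and H2-Ab1 belong to MHC class II antigen presentation, and Cmpk2 and Ddx60 to the interferon-stimulated list. Cd74 had 15.8, 2.94 and 9.01 CPM in KO mice and 86.5, 263 and 257 CPM in WT mice. As for the summed members, WT1 was lowest of WT and KO2 lowest of KO. Since Cd74 was picked by its likeness over these same mice, that order is no separate evidence. Isg15 ranked 17th of the 6637 genes and Ifit1bl2 1540th (r = 0.269). Over 14 values, 7 cell classes in 2 genotypes, the nearest genes were Isg15 (0.940), Zswim4 (0.932), Bach1 (0.926), Mir22hg (0.921) and Ltb4r1 (0.919), and Ifit1bl2 ranked 46th of 7977 (0.862). The points share libraries and genotype, and r is a measure of likeness with no test.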

How the data were processed

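The authors deposited raw UMI counts per gene and hashtag in barcodes called as cells, whole numbers without normalization. Per the submitters' processing notes, Cell Ranger 7.0.1 and mm10 were used, and Seurat 4.1.0 is named without a role; whether intronic reads counted is not given in the sources used here. UMI counts summed to 110960113 in the KO and 102915321 in the WT library.

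Barcodes were filtered as stated in the text. Mice were assigned by HTODemux of Seurat 5.3.0 at a quantile of 0.99; 337 KO and 619 WT doublets were left out, 816 KO and 2097 WT cells without a hashtag entered clustering only, and doublets within a mouse stay in. A rule asking for a hashtag ratio of 3 never gave another mouse. The 8635 cells were clustered (scanpy 1.11.5, leidenalg 0.10.2, 2000 variable genes, 30 components, 15 neighbours, resolution 1) without the pathway lists. Clusters were named where the best marker score reached 0.25 and led by 0.15, both set after the clusters had been seen, with at least 3 markers at 20 CPM; clusters 7, 8, 17 and 19 stayed unnamed.

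Counts summed per mouse were tested with edgeR 4.0.16 in R 4.3.3 (quasi-likelihood, TMM, filterByExpr, Benjamini-Hochberg over all genes, threshold 0.05), tested on simulated data. Text levels are CPM of all UMIs unless called TMM-scaled. DESeq2 1.42.0 was an alternative. The pairing check correlated deviations from genotype means: 0.428, 0.844 and 0.646 in all cells and 0.711, 0.878 and 0.635 in enterocyte-like cells for hashtags 1 to 3. Other pairs correlated too (KO1 with WT3 at 0.629 and 0.696), so what the block removes is largely how far both hashtag 2 mice stand from the rest; no label states a pairing. Classes with 20 cells in every mouse were tested. All permutation tests are 2-sided. Named genes of other lists have the smallest blocked p, up to 5 per list and class (1 is not reported here), with Stat2, Irf9, Ifnlr1 and Ifit1bl2 added. Members and lists were chosen with earlier results of these data known. Intervals cover counting error only.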

Additional observations from a re-analysis of the deposited data

How the results depend on the processing

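The members' log2 fold changes kept their sign and call in 180 of 207 alternatives and passed the threshold anew in 27, and none turned or lost a call. Only Ifit1 in goblet-like cells had a call to lose, so most of the 180 are members that stayed uncalled. In all cells, 0 of 5 members were called without a block, 2 with the replicate block, 3 by DESeq2 and 1 with the block and without each mouse's richest IFIT barcode (chosen after seeing the data); over all genes these counts were 0, 115, 36 and 120. In enterocyte-like cells they were 0, 5, 2 and 5, and 4 without the hashtag 2 mice, and over all genes 0, 2054, 57 and 2151, and 1095 without the hashtag 2 mice. In goblet-like cells 1 member was called, and 2 with the replicate block. None of the richest barcodes was goblet-like, so leaving them out repeated those fits. The count was 2 without the low-count filter and 1 to 2 with 1 mouse left out. Over all genes 261 were called there, 154 by DESeq2, 531 without the filter and 81 to 690 with 1 mouse left out (81 without KO2, 690 without WT2). The block in goblet-like cells called 351 genes, 2.5% of all lower in KO, but equal hashtag numbers did not deviate together there (correlations 0.0548, 0.0169 and 0.00385). The Ifit1bl2 log2 fold change ran from −0.54 to 0.18 in all cells, −0.38 to 0.086 in enterocyte-like and −0.88 to 0.15 in goblet-like cells with 1 mouse left out, turning without KO2 (0.18, 0.086 and 0.15) and without WT3 (0.17, 0.02 and 0.09), and was 0.014 with library totals in enterocyte-like cells. Library totals moved the median of all genes to 0.21, 0.23 and 0.12, beside 0.06, 0.06 and 0.01. Of the members between classes, 5 passed, 3 with members under 5 UMIs left out, and 0 with 1 mouse left out, since 5 mice allow no p under 0.0625. The genotype difference between classes turned to −0.51 for Ifit1 and −0.0042 for Ifit1bl1 with a pseudocount of 5, and with 1 mouse left out ran from −0.057 to 0.69 and from −0.13 to 1.14. Villus differences with 1 mouse left out ran from −0.46 to 0.51 for Ifit1bl1 and from −0.17 to 0.41 for Ifit3b. The share of cells with Ifit2 in enterocyte-like cells differed by 0.0082 points without the hashtag 2 mice. The cause of these shifts was not tested. Ifit2, Ifit3 and Ifit3b gave 87 to 173 UMIs over 6 mice in enterocyte-like cells.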
